A study of Mus musculus with 4 samples.

Results

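Aminoacyl-tRNA synthetases join each amino acid to the transfer RNA that carries it to the ribosome. Animal cells keep separate enzymes for the cytosol and for the mitochondria, and both sets are encoded in the nucleus. The glycyl and lysyl enzymes (*Gars*, *Kars*) each serve both compartments from 1 gene, and mouse mitochondria make glutaminyl-tRNA with an amidotransferase instead of an enzyme of their own. Several cytosolic enzymes sit together in a multisynthetase complex. The RNA levels of 36 of these genes were followed in mouse embryonic stem cells (mESCs) with and without the label of *Spen* loss. They comprise 18 cytosolic, 2 dual and 16 mitochondrial enzymes, and were chosen by name from 37310 genes of a raw count table. All 36 were found and all had enough counts to be tested.

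RNA was sequenced in 2 libraries of the HATX WT line and 2 libraries of clone 2 of the *Spen* KO made in that line. The labels give both as mESCs of mixed genomic background, grown in serum and LIF on gelatin, with no treatment stated. The study describes both lines as haploid and as carrying an *Xist* transgene that doxycycline can induce, and the KO as a deletion of all or, in its list of materials, most of *Spen*, which encodes an RNA-binding repressor. Each group is 1 line, so any other difference between the clone and the WT line cannot be told apart from *Spen* loss. Nothing states that the 2 libraries of a line came from separate cultures, so p-values measure the spread between libraries, which may be technical.

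Total counts ran from 36667685 to 61908422 per library. *Spen* itself, on chromosome 4 (141023805 to 141094512, mm9), had 3716 and 3047 normalized counts in WT and 7797 and 6242 in the libraries labelled KO, a log2 fold change of 1.05 ± 0.21 (SE). Gene-level counts were higher and say nothing of the protein, which was not analysed here, so they speak neither for nor against the label, and the group is called KO-labelled below. The 8 mESC markers had between 3500 and 61114 normalized counts in every library, and 2 of them, *Dppa5a* and *Zfp42*, were higher in the KO-labelled libraries. Of the fibroblast markers, *Col1a1*, *Col1a2*, *Postn* and *Dcn* stayed at or under 49.6, while *Thy1* had 118 and 137 in WT and 356 and 414 in KO-labelled libraries. Of 5 endoderm markers 2 were lower in the KO-labelled libraries, *Gata4* and *Lama1*. The part of these markers in the results below was not tested.

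Many cytosolic synthetase genes are known targets of ATF4, the transcription factor of the amino acid response. Its composite site with C/EBP factors was therefore searched for as TGATGNAA, on both strands, from 250 bases before to 50 bases after the RefSeq start (GRCm38.p6). Promoters were found for 27 members (*Mars* as *Mars1*), and not for *Cars*, *Hars*, *Hars2*, *Lars*, *Nars*, *Pars2*, *Rars*, *Vars* and *Wars*. The motif was present in 5 of the 27 (18.5%), against 4.51% of 27025 genes with a promoter. All 5 were cytosolic or dual enzymes, *Aars*, *Iars*, *Tars*, *Yars* and *Gars*, and none of 14 mitochondrial enzymes held it. A match in each of these 5 promoters is shown, to mark the members that hold an ATF4 motif there, with the motif in capitals and 10 bases on either side.
Aars, chr8:111033841-111033868, minus strand: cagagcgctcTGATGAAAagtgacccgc
Iars, chr13:49682127-49682154, minus strand: cgtctggaggTGATGCAAtactgacagt
Tars, chr15:11399656-11399683, plus strand: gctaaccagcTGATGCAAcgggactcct
Yars, chr4:129189896-129189923, plus strand: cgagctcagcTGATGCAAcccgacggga
Gars, chr6:55037961-55037988, minus strand: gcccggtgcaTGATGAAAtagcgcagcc
A second motif, the E-box CACGTG, was found in 5 of the 27 promoters (18.5%), those of *Aars*, *Farsb*, *Iars*, *Tars* and *Ears2*, against 8.09% of all genes. A match is only a description of these letters.

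Levels were compared between genes as normalized counts per kb of exon, from GENCODE vM1 exon lengths. In WT the cytosolic enzymes had a median of 3682 and the mitochondrial enzymes, without *Lars2*, a median of 460. Apart from *Lars2*, the glycyl enzyme *Gars* was highest, at 14258 and 13544 in WT and 12843 and 13825 in KO-labelled libraries. *Nars*, *Kars* and *Tars* followed, and *Nars* and *Kars* were too close to order in the KO-labelled libraries (8942 and 8939 on average). The lowest was *Wars2*, which charges mitochondrial tryptophan tRNA, at 53.3 and 59.5 in WT and 65.6 and 54.7 in KO-labelled libraries.

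With *Lars2* left out, the cytosolic and mitochondrial sets did not overlap in the WT libraries. The lowest cytosolic enzyme, *Farsa*, had 1302 and 1316 normalized counts per kb there, above 1173 and 1115 for the highest mitochondrial enzyme, *Tars2*. In the KO-labelled libraries *Tars2* had 1529 and 1578, above *Yars* at 1305 and 1353, so the sets overlapped. Genes that moved by at least 4 ranks were *Mars2*, from rank 29 to 24 of 35, *Mars* from 8 to 13, *Rars* from 12 to 8, *Eprs* from 13 to 9 and *Sars* from 10 to 14.

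**Figure D1:**
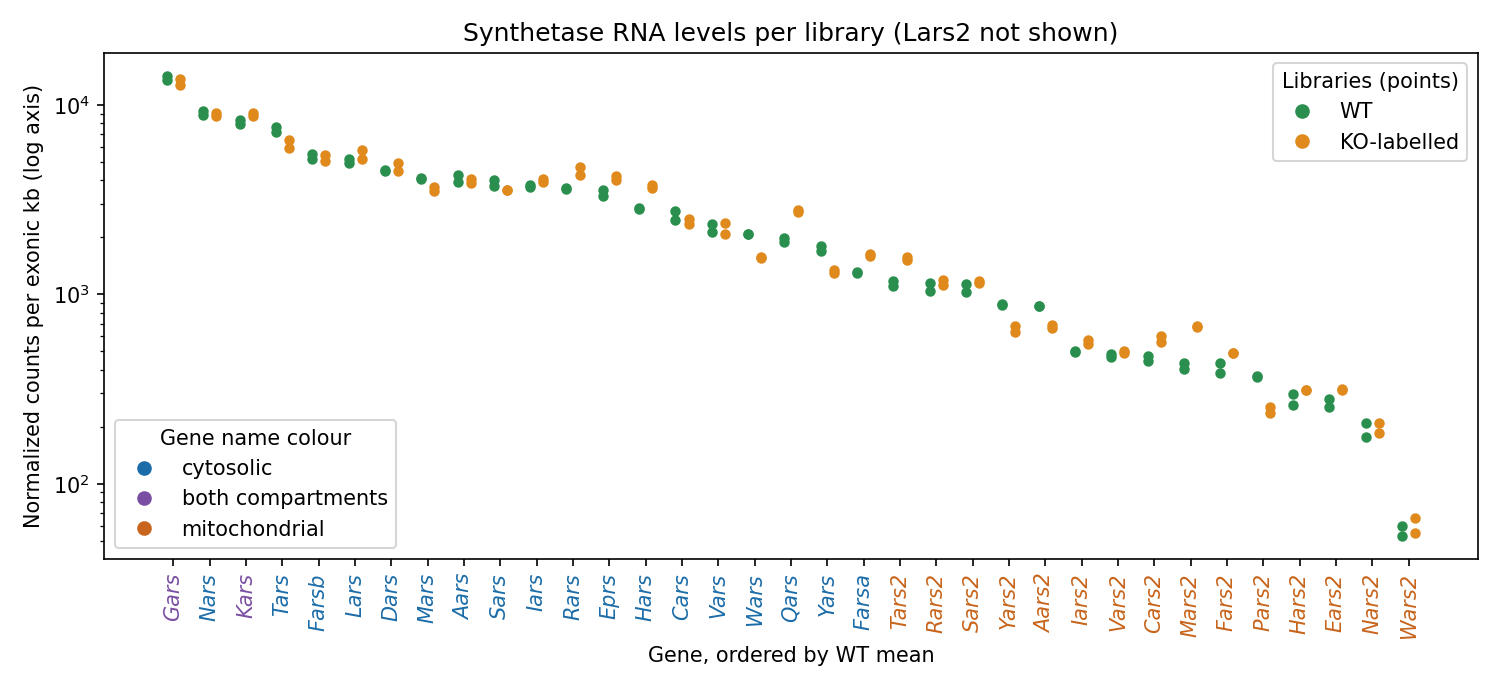
Normalized counts per exonic kb (log axis) of 35 synthetase genes, ordered by the WT mean, with 1 point per library (WT green, KO-labelled orange) and gene names coloured by compartment. The WT points of every cytosolic gene lie above those of every mitochondrial gene plotted (*Lars2* is not), from 13901 for *Gars* to 56.4 for *Wars2* on average.

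The comparison between lines asks which genes changed with the *Spen* KO label. No synthetase gene reached the thresholds of the study (at least 2-fold and an adjusted p under 0.001) in DESeq2. Among the 17710 genes tested 4.51% did, 1.36% higher and 3.15% lower, and among the 9608 genes whose mean count was at least that of the lowest member 3.82% did, 1.25% higher and 2.57% lower. At the thresholds of the study, edgeR and the fit with a replicate block each called 1 of 36, *Lars2*. An unadjusted p under 0.05 was seen in 20 of the 36 members, a count with no share of all genes to set beside it. Without a minimum fold, the threshold of 0.05 on the adjusted p was passed by 8 higher and 8 lower members. That is 44.4% of members, against 32.3% of all genes tested and 46.6% of those 9608 genes of like abundance (25.9% higher and 20.7% lower). The share of members is thus close to that of these genes. They are called genes of like abundance here, but were set only by that minimum count and not matched to the members. By direction, the shares among all genes were 16.4% higher and 15.8% lower. The counts of higher and of lower members fell when any 1 library was left out, as did those of all genes.

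Changes were small apart from *Lars2*, which is described separately below. The other 35 genes had log2 fold changes from -0.58 to 0.69 with a median of 0.07, against 0.00 (0.0049) for all genes tested and 0.05 for genes of like abundance. Upper-quartile scaling moved this median to 0.11, and removing chromosome medians moved it to 0.03. The median size of change, regardless of sign, was 0.17 among the 35 and 0.24 among genes of like abundance. Cytosolic enzymes had a median of -0.01 and mitochondrial enzymes without *Lars2* one of 0.10. The summed normalized counts of the 35 genes were 363529 and 353234 in WT and 361537 and 375104 in KO-labelled libraries, between 0.74% and 0.774% of all counts.

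**Figure D2:**
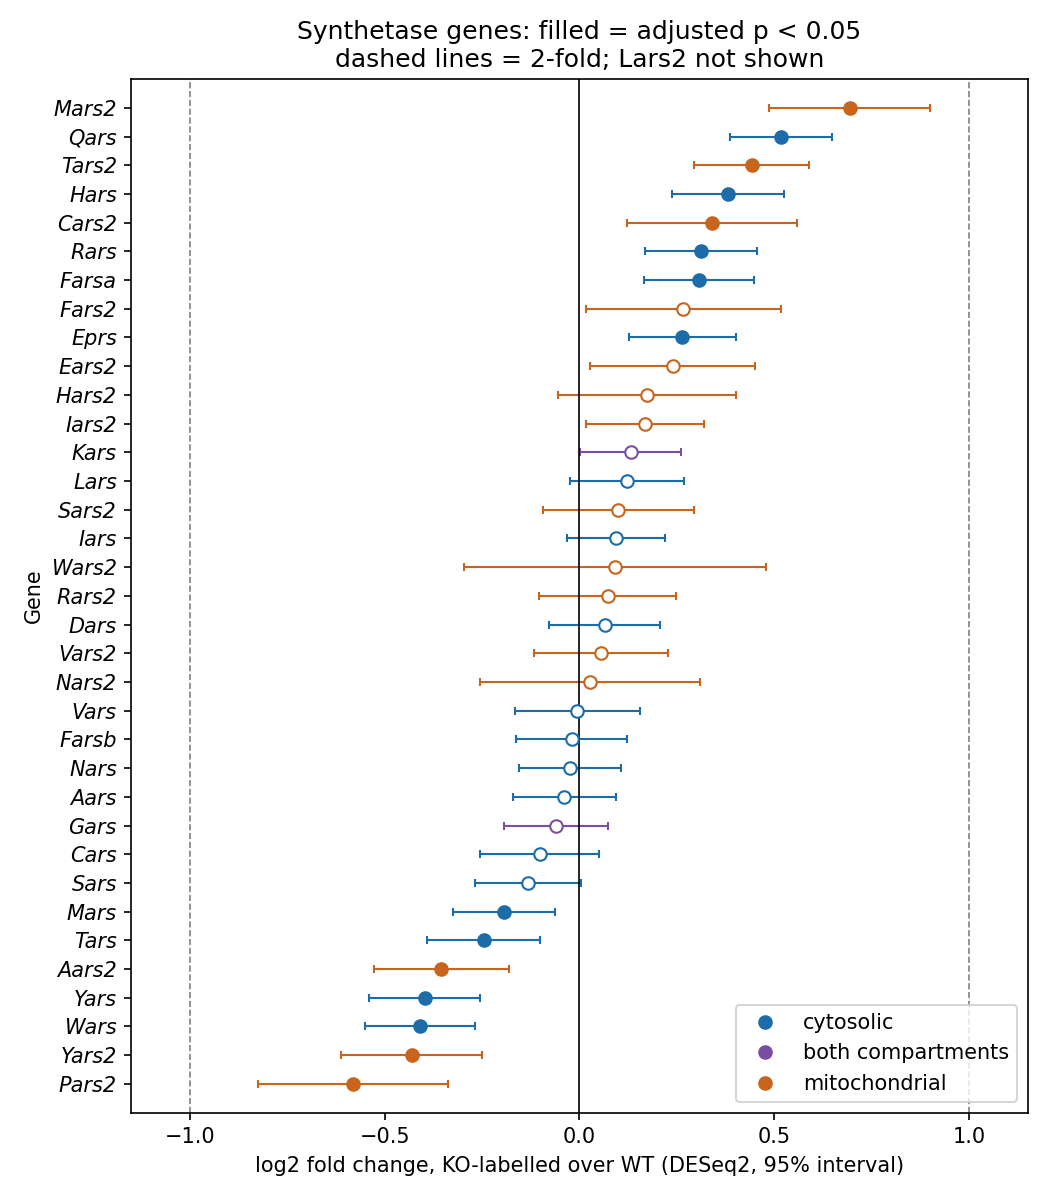
The log2 fold change (KO-labelled over WT) of 35 synthetase genes with its 95% interval, coloured by compartment, filled where the adjusted p was under 0.05. The 15 filled genes lie between -0.58 and 0.69, inside the dashed 2-fold lines, with 8 to the right of 0 and 7 to the left.

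Among mitochondrial enzymes, 3 were higher, those for methionine, threonine and cysteine. *Mars2* (chromosome 1, 55294021 to 55296902, mm9), the mitochondrial methionyl enzyme, had 1160 and 1258 normalized counts in WT and 1967 and 1946 in KO-labelled libraries. Its groups stood well apart, with a log2 fold change of 0.69 ± 0.11 (SE) and an adjusted p of 8.9e-10, or 61.7% higher. *Tars2* (chromosome 3, 95543899 to 95558900), which charges mitochondrial threonine tRNA, had 5206 and 4946 in WT and 6786 and 7002 in KO-labelled libraries, a log2 fold change of 0.44 ± 0.08 (adjusted p = 6.45e-08). *Cars2*, the mitochondrial cysteinyl enzyme on chromosome 8, had 1168 and 1246 against 1475 and 1580. Its log2 fold change of 0.34 ± 0.11 had an adjusted p of 0.0095, which rose to between 0.0633 and 0.217 when any 1 of the 4 libraries was left out.

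Another 3 mitochondrial enzymes were lower, those for proline, tyrosine and alanine. *Pars2* (chromosome 4, 106323674 to 106327887), which charges mitochondrial proline tRNA, had 1148 and 1128 normalized counts in WT and 733 and 788 in KO-labelled libraries. It fell by 0.58 ± 0.12 (SE) on the log2 scale (adjusted p = 2.72e-05), the most of these 35 genes. *Yars2* (chromosome 16, 16303058 to 16309733), the mitochondrial tyrosyl enzyme, had 2776 and 2797 against 1985 and 2148, a log2 fold change of -0.43 ± 0.09 (adjusted p = 2.87e-05). *Aars2*, its alanyl counterpart on chromosome 17, had 2896 and 2915 against 2240 and 2305, a log2 fold change of -0.35 ± 0.09 (adjusted p = 0.000377). Without KO-labelled replicate 1 the adjusted p of *Aars2* was 0.0517. In all 3 genes the WT libraries lay close together and above both KO-labelled ones.

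Cytosolic enzymes that rose numbered 5. The largest change was in *Qars* (chromosome 9, 108410336 to 108418272), the glutaminyl enzyme, which had 12260 and 11733 normalized counts in WT and 16906 and 17416 in KO-labelled libraries. Its log2 fold change was 0.52 ± 0.07 (SE) with an adjusted p of 4.3e-13. Sequence copies elsewhere covered 4.05% of its exonic bases. *Hars*, the histidyl enzyme on chromosome 18, had 5617 and 5707 against 7225 and 7519 (0.38 ± 0.07, adjusted p = 2.11e-06). It shares 195 exonic bases with *Hars2* on the other strand.

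*Rars* and *Eprs*, which charge arginine and both glutamate and proline, were also higher, as was *Farsa*, the alpha subunit of the phenylalanyl enzyme. *Rars* (chromosome 11) had 11723 and 11649 normalized counts in WT and 13791 and 15242 in KO-labelled libraries, a log2 fold change of 0.31 ± 0.07 (adjusted p = 0.000142). *Farsa* (chromosome 8) had 5906 and 5971 against 7451 and 7235, a log2 fold change of 0.31 ± 0.07 (adjusted p = 0.000159). *Eprs* (chromosome 1) had 25760 and 23794 against 28945 and 30560, a log2 fold change of 0.26 ± 0.07 (adjusted p = 0.000878). The groups did not overlap in any of these 3 genes. Adjusted p values were above 0.05 for *Rars* without KO-labelled replicate 2 (0.0609), and for *Eprs* without WT replicate 2 (0.0736) or KO-labelled replicate 2 (0.0836).

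The beta subunit of the phenylalanyl enzyme, *Farsb*, did not pass the test. It had 13469 and 12640 normalized counts in WT and 12422 and 13317 in KO-labelled libraries, so that the groups overlapped. Its log2 fold change was -0.02, with a 95% interval from -0.16 to 0.12 that lies below the interval of *Farsa* (0.16 to 0.45). The cytosolic enzyme holds both subunits in equal number, and a test of the difference between their genes was not run.

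Cytosolic enzymes that fell numbered 4. *Wars* (chromosome 12, 110098240 to 110132384), the tryptophanyl enzyme, had 7166 and 7177 normalized counts in WT and 5385 and 5407 in KO-labelled libraries. Its log2 fold change was -0.41 ± 0.07 (SE) with an adjusted p of 1.63e-07. *Yars* (chromosome 4), the tyrosyl enzyme, had 10762 and 10045 against 7756 and 8040 (-0.40 ± 0.07, adjusted p = 5.85e-07). Copies covered 5.15% of the exonic bases of *Yars*, and a small nucleolar RNA gene overlaps 88 of them on the same strand.

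The changes of *Tars* and *Mars*, the threonyl and methionyl enzymes, were smaller. *Tars* (chromosome 15) had 20098 and 18971 normalized counts in WT and 15648 and 17302 in KO-labelled libraries, a log2 fold change of -0.25 ± 0.07 (adjusted p = 0.00424). *Mars* (chromosome 10) had 14011 and 14195 against 12599 and 12068, a log2 fold change of -0.19 ± 0.07 (adjusted p = 0.0149). Neither call was firm. The adjusted p of *Mars* rose to between 0.0829 and 0.261 when any library was left out. That of *Tars* was 0.144 without WT replicate 1 and 0.209 without KO-labelled replicate 1. With the replicate number as a block the adjusted p was 0.142 for *Mars* and 0.0621 for *Tars*. That of *Cars2* was 0.0696 under the same block. *Mars* also shares 68 exonic bases with *Ddit3* on the other strand.

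**Figure D3:**
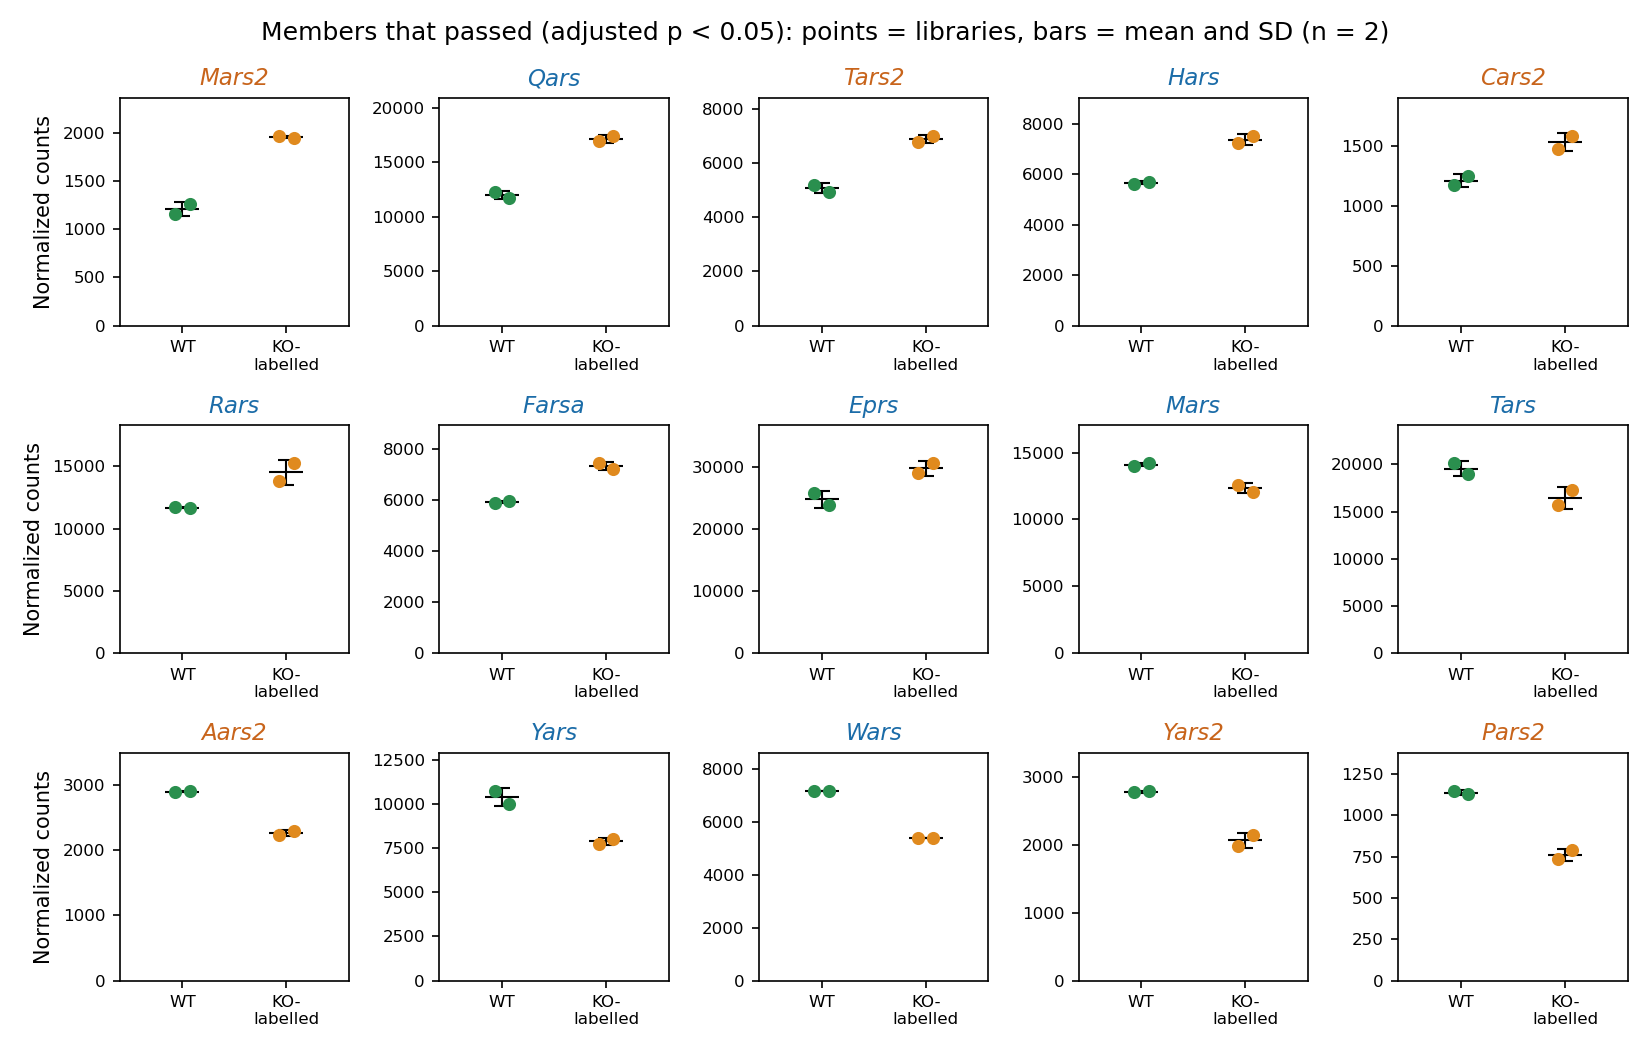
Normalized counts in each library (points) with the mean and SD (black, n = 2) for the 15 members at an adjusted p under 0.05 other than *Lars2*, with axes from 0 and gene names in blue for cytosolic and brown for mitochondrial enzymes. In every panel both KO-labelled points lie on one side of both WT points, from *Mars2* (61.7% higher) to *Pars2* (1138 against 761 on average).

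Groups without overlap were common in these libraries. They were seen for 26 of the 36 members, against 70.2% of all genes tested and 78.1% of those of like abundance.

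The least changed members were *Vars*, *Farsb* and *Nars*, which charge valine, phenylalanine (with *Farsa*) and asparagine. *Vars* had 12000 and 13142 normalized counts in WT and 13322 and 11722 in KO-labelled libraries, and *Nars* had 24629 and 23221 against 23106 and 23963. Both groups overlapped in each. The 95% interval of the log2 fold change was -0.17 to 0.16 for *Vars* and -0.15 to 0.11 for *Nars*. *Aars*, *Gars* and *Dars*, also among the abundant enzymes, had log2 fold changes of -0.04, -0.06 and 0.06 and overlapping groups.

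Some members missed the threshold narrowly. *Iars2*, *Ears2* and *Fars2*, which serve mitochondrial isoleucine, glutamate and phenylalanine, had log2 fold changes of 0.17, 0.24 and 0.27 and adjusted p of 0.0807, 0.0759 and 0.0983 in DESeq2. In edgeR *Ears2* and *Fars2* passed (0.0401 and 0.0477). With upper-quartile scaling these 3 and *Kars* (0.13 and adjusted p = 0.12 with the default scaling) passed, which raised the count of higher members to 12. The rest, *Sars*, *Cars*, *Iars*, *Lars*, *Hars2*, *Sars2*, *Rars2*, *Vars2*, *Nars2* and *Wars2*, had log2 fold changes between -0.13 and 0.17 and adjusted p of at least 0.141. Of the exonic bases of *Iars2*, 2018 overlap *Rab3gap2* on the other strand.

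Enzymes for the same amino acid in the cytosol and in the mitochondria were next set side by side as a ratio within each library, which does not depend on how libraries are scaled. The methionine, proline and threonine pairs shifted furthest, leucine apart. The ratio of *Mars2* to *Mars*, per kb of exon, was 9.83% and 10.5% in WT and 18.5% and 19.2% in KO-labelled libraries. The log2 ratio differed by 0.89 between groups, and by 0.44 with chromosome medians removed, where *Mars* is no longer below WT. The threonine pair also shifted up, with *Tars2* at 15.4% and 15.5% of *Tars* in WT and 25.8% and 24.0% in KO-labelled libraries, a difference of 0.69 on the log2 scale (0.66 with chromosome medians removed) with *Tars2* higher and *Tars* lower.

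Proline went the other way. *Pars2* was at 10.4% and 11.03% of *Eprs* in WT and 5.89% and 5.996% in KO-labelled libraries, a log2 difference of -0.85 (-0.54 with chromosome medians removed). For glutamate, the other amino acid that *Eprs* charges, *Ears2* was at 7.09% and 8.45% of *Eprs* in WT and 7.89% and 7.35% in KO-labelled libraries, and the groups overlapped. The tyrosine ratio also overlapped, with *Yars2* at 48.7% and 52.5% of *Yars* in WT and 48.3% and 50.4% in KO-labelled libraries. The alanine ratio was lower in the KO-labelled libraries, with *Aars2* at 20.3% and 22.1% of *Aars* in WT and 17.1% and 16.9%, a log2 difference of -0.32 that came to -0.08 with chromosome medians removed. With 2 libraries against 2, an exact two-sided permutation test of such a ratio cannot go below 0.333, so none is given.

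Leucine apart, pairs in which the 2 genes had opposite signs but not both passed were cysteine, asparagine, serine, valine, tryptophan and phenylalanine. *Cars* had 12806 and 11448 normalized counts in WT and 10940 and 11649 in KO-labelled libraries, while *Cars2* rose. *Sars* had 13735 and 14774 against 12976 and 13047, and *Sars2* had 2117 and 1910 against 2125 and 2188. The KO-labelled values of *Sars* lay below, and those of *Sars2* above, both WT values, within short distances. *Nars2* had 884 and 744 against 777 and 880, and *Vars2* had 2641 and 2557 against 2738 and 2665. *Wars2* had 317 and 354 against 390 and 326, where *Wars* fell. *Fars2* had 813 and 919 against 1038 and 1047, above WT in both libraries, where *Farsb* overlapped.

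**Figure D4:**
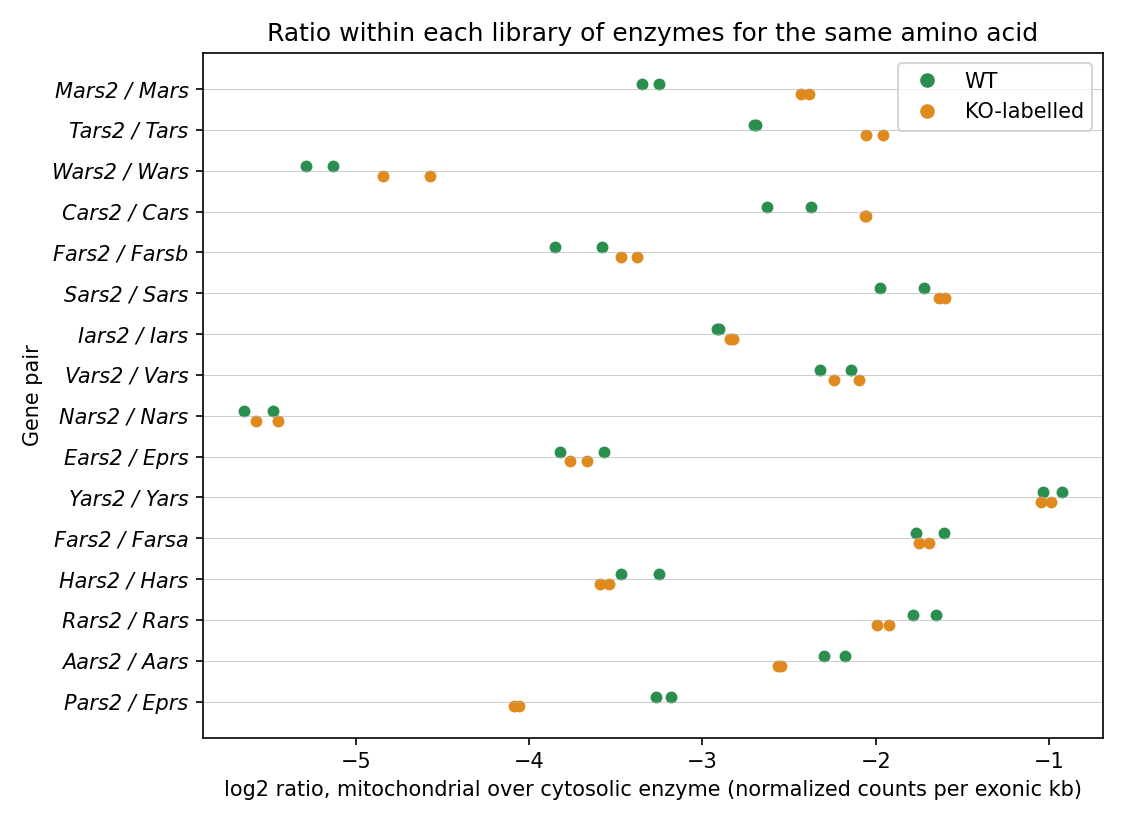
The log2 ratio within each library of the mitochondrial to the cytosolic enzyme for the same amino acid (normalized counts per exonic kb), for 16 gene pairs ordered by the difference between groups, WT in green and KO-labelled in orange. *Mars2*/*Mars* and *Tars2*/*Tars* shift right by 0.89 and 0.69, and *Pars2*/*Eprs* shifts left from -3.23 to -4.07 on average.

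Members were then grouped by partnership and by fold family. The 8 enzymes of the multisynthetase complex (*Eprs*, *Iars*, *Lars*, *Mars*, *Qars*, *Rars*, *Kars*, *Dars*) had a median of 0.13 for the log2 fold change. Of them 3 rose and 1 fell at an adjusted p under 0.05 (50% passed, against 46.6% of genes of like abundance). The 11 cytosolic enzymes outside it had a median of -0.04, with 2 higher and 3 lower (45.5%), so both shares are near the background. With chromosome medians removed, 1 complex enzyme was higher and 0 lower, and outside the complex 2 were higher and 4 lower. Signs were positive in 7 of 8 complex enzymes and negative in 9 of the 11 others, counting genes that did not pass. With chromosome medians removed these signs were 6 of 8 and 8 of 11, and with upper-quartile scaling, or without WT replicate 1, 7 of 8 and 6 of 11. The share of each sign over all genes was not computed. Without *Lars2*, class I enzymes had 5 higher and 4 lower of 18, and class II enzymes 3 higher and 3 lower of 17, which is 50% and 35.3%, against 25.9% higher and 20.7% lower among genes of like abundance. No test between these groups was made.

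Whole chromosomes differed in their median log2 fold change in these libraries, and 9 members other than *Lars2* lie on the 5 autosomes with the lowest medians, 4, 10, 12, 16 and 17 (-0.21, -0.35, -0.32, -0.23 and -0.14). Of these 9 members 6 were lower and 0 higher, with a median log2 fold change of -0.35. Among genes of like abundance on those chromosomes 43.8% were lower and 6.47% higher. The other 26 members held 1 lower gene, *Tars*, and all 8 higher ones, with a median of 0.13. On those other chromosomes 13.9% of genes of like abundance were lower and 31.7% higher. These shares describe the chromosomes, which were picked for their medians, and no test was made. The higher members lie on chromosomes 1, 3, 8, 9, 11 and 18, whose medians were between 0.09 and 0.16.

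When chromosome medians were removed before the test, several calls changed. *Wars* went from -0.41 to -0.09 (adjusted p = 0.394) and *Yars2* from -0.43 to -0.20 (0.105), so that neither could be told from the median gene of its chromosome. *Mars* turned to 0.15 (0.0764), as the median of chromosome 10 (-0.35) was below its own value. *Pars2*, *Yars* and *Aars2* stayed past the threshold at -0.37, -0.19 and -0.22 (adjusted p = 0.013, 0.0347 and 0.0477). *Tars*, on a chromosome with a median of 0.07, moved to -0.32 (0.000185). Among the higher members, *Mars2*, *Qars*, *Tars2*, *Hars* and *Farsa* kept log2 fold changes of 0.59, 0.38, 0.35, 0.25 and 0.20 and stayed past the threshold. *Eprs*, *Rars* and *Cars2* did not (adjusted p = 0.0695, 0.125 and 0.103). *Sars* and *Cars* became lower, at -0.22 and -0.20, and *Rars2*, on chromosome 4, higher, at 0.28. Copy number was not measured here, and its part in these values was not tested.

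**Figure D5:**
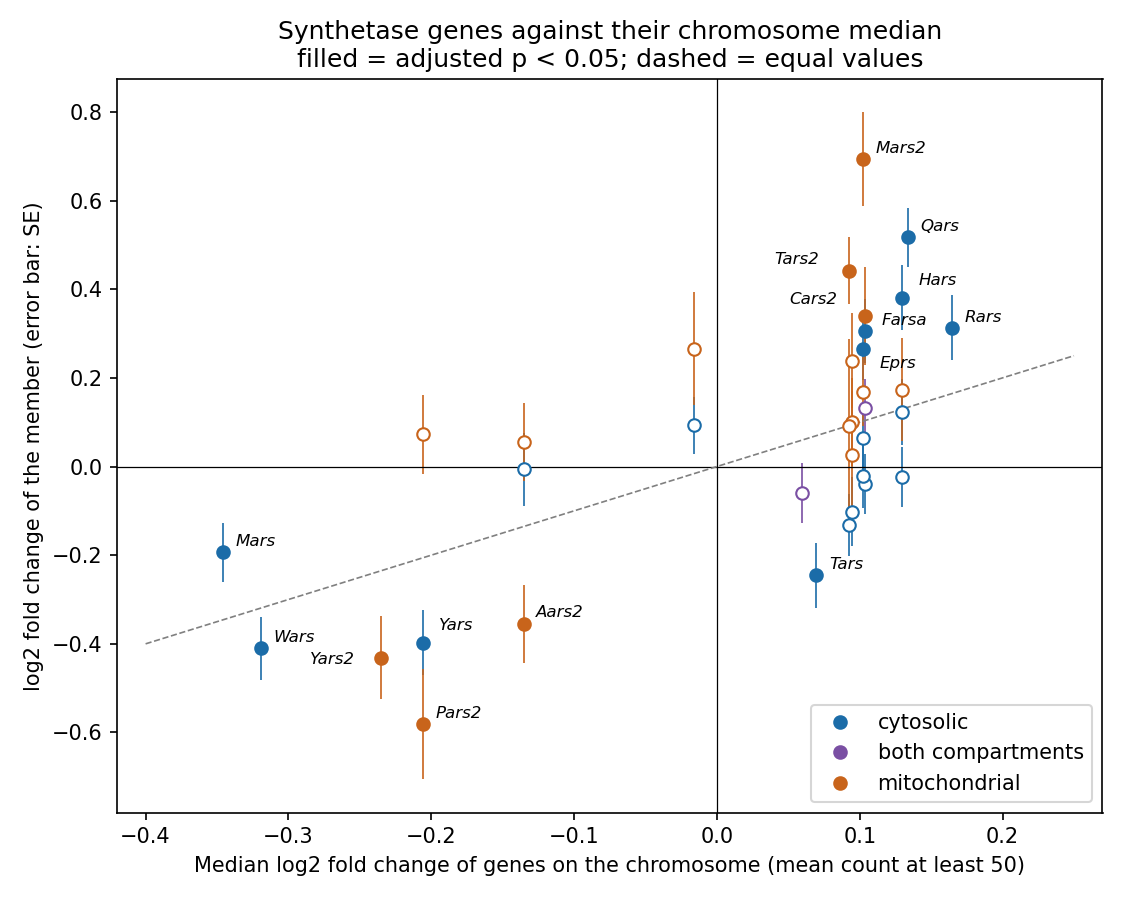
The log2 fold change of each of 35 members (error bar: SE) against the median log2 fold change of genes on its chromosome, filled where the adjusted p was under 0.05, with the dashed line marking equal values. Of the 7 filled genes below 0, 6 sit on chromosomes with medians from -0.35 to -0.14, with *Tars* at 0.07 the exception.

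*Lars2*, the mitochondrial leucyl enzyme (chromosome 9, 123276058 to 123371782, mm9), stood apart. It had 540161 and 155235 counts in WT and 104574 and 47853 in KO-labelled libraries, or 716146, 169048, 91055 and 37447 normalized counts. Libraries of the same line differed 4.24-fold in WT and 2.43-fold in the KO-labelled group, against at most 1.19-fold and 1.198-fold for any of the other 35 members. *Lars2* alone took 1.47%, 0.354%, 0.191% and 0.0773% of the 4 libraries. Per kb this was 3552% and 885% of the cytosolic leucyl enzyme *Lars* in WT, where every other mitochondrial enzyme was below its cytosolic counterpart.

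The log2 fold change of *Lars2* was -2.78 ± 1.08 (SE), with an adjusted p of 0.0325. Without WT replicate 1 it was -1.39 (adjusted p = 0.381), without KO-labelled replicate 1 it was -3.56 (0.079) and without KO-labelled replicate 2 it was -2.28 (0.318). The call therefore rested on those libraries, and edgeR and the fit with a replicate block gave far smaller adjusted p (0.000915 and 1.62e-09). The cytosolic partner *Lars*, by contrast, had 20057 and 18995 normalized counts in WT and 20082 and 22428 in KO-labelled libraries, a log2 fold change of 0.12 (adjusted p = 0.219).

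Sequences of at least 60 bases and 97% identity elsewhere in mm9 covered 10.3% of the exonic bases of *Lars2*, in 5 matches. The share was larger for *Iars*, at 13.56% in 7 matches. *Iars* had 19533 and 19947 normalized counts in WT and 20728 and 21371 in KO-labelled libraries. Ribosomal RNA genes were set beside it because the libraries were made by removing ribosomal RNA. Genes annotated as nuclear rRNA held 230 to 251 counts per library, which says nothing of rRNA outside that annotation. The 2 mitochondrial rRNA genes held 689844 and 428052 counts in WT and 396217 and 444414 in KO-labelled libraries. As shares of all counts these were 1.88% and 0.977% in WT and 0.724% and 0.718% in KO-labelled libraries. The shares of *Lars2* had the same order of libraries, with WT replicate 1 highest. *AY036118*, a gene chosen after its values were seen, had 159063 and 237548 counts in WT and 63326 and 62402 in KO-labelled libraries, in the reverse order within WT. The part of these in the *Lars2* counts was not tested.

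Beyond the enzymes, 21 genes that act with them were described from a list of partners, of which 4 rose and 3 fell at an adjusted p under 0.05 (33.3%, against 32.3% of all genes tested and 46.6% of those at or above the lowest synthetase), with a median log2 fold change of 0.06. When any 1 library was left out, or with a replicate block, 2 partners rose. None reached the 2-fold threshold in DESeq2, and 7 had an unadjusted p under 0.05, again with no share of all genes beside it. The examples that follow were chosen after their values were seen. *Qrsl1*, a subunit of the amidotransferase that makes mitochondrial glutaminyl-tRNA, had 1297 and 1191 normalized counts in WT and 799 and 754 in KO-labelled libraries, a log2 fold change of -0.68 ± 0.12 (adjusted p = 5.1e-07), while *Qars* rose. Its other subunits *Gatb* and *Gatc* had values of -0.18 and -0.19 and did not pass. *Tufm*, the mitochondrial elongation factor that takes charged tRNA to the ribosome, had 6259 and 6005 against 9305 and 9083 (0.58 ± 0.07, adjusted p = 1.26e-14). *Xpot*, which exports tRNA from the nucleus, had 15843 and 15890 against 10896 and 11546 (-0.50 ± 0.07, adjusted p = 5e-12). *Xpot* and *Qrsl1* lie on chromosome 10, and with chromosome medians removed their values were -0.15, past the threshold no longer (adjusted p = 0.0783), and -0.33 (0.0303). Among the scaffold proteins of the multisynthetase complex, *Aimp1* was higher at 0.18 (adjusted p = 0.0475; 0.0602 in edgeR and 0.426 with chromosome medians removed), and *Aimp2* and *Eef1e1* had 0.06 and 0.16 and did not pass.

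The pathway of ATF4 was described from a list of 23 genes, *Atf4* included. At an adjusted p under 0.05, 14 fell and 2 rose, which is 69.6% of the list, against 32.3% of all genes tested (15.8% lower) and 46.6% of those at or above the lowest synthetase (20.7% lower), a level that *Cebpb*, *Slc7a11*, *Atf3* and *Ddit3* of the list do not reach. The median log2 fold change was -0.26. Of the 23 genes 1, *Atf3*, passed the 2-fold threshold, which 4.51% of all genes tested did (3.15% lower). *Cebpb* and *Slc7a11*, chosen after their values were seen, also differed by over 2-fold, at adjusted p of 0.00638 and 0.00386. Leaving out any 1 library reduced the lower count, as it did over all genes. The 2 higher calls came to 0 without WT replicate 1, KO-labelled replicate 1 or KO-labelled replicate 2, and with chromosome medians removed. The 2-fold call of *Atf3* was lost without either WT library or without KO-labelled replicate 1. *Atf4* itself had a log2 fold change of -0.02 (adjusted p = 0.899). Among the 5 synthetase genes with the TGATGNAA motif, *Tars* and *Yars* were lower, and *Aars*, *Gars* and *Iars* did not pass, at -0.04, -0.06 and 0.09. None of the 8 higher members held the motif in a promoter that was found. Promoters were not found for *Hars* and *Rars* among them, nor for *Wars* and *Pars2* among the lower members. The motif was present in 4.51% of genes with a promoter, so its absence from so few promoters shows no contrast between higher and lower members.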

How the data were processed

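RNA-seq libraries were made with a stranded TruSeq kit after ribosomal RNA removal, 2 per line. The authors deposited raw counts per gene, unnormalized. The submitters' processing notes name bcl2fastq, STAR, featureCounts, DESeq2 and mm9; versions and the counting strand are not given in the sources used here, so exonic bases shared with a gene on the other strand are uncertain. Gene identifiers were matched to symbols and exon lengths through GENCODE vM1. Counts were scaled and tested over all genes with DESeq2 1.42.0 (R 4.3.3), Benjamini-Hochberg adjustment and unshrunken fold changes. edgeR 4.0.16 was an alternative, as were other scalings, a low-count filter, a replicate block, left-out libraries and removal of chromosome medians (genes with a mean count of at least 50). Copies were searched with blastn 2.17.0. The fit was tested on simulated data. Members with an adjusted p under 0.05 and the least changed ones were named, and *Lars2* was kept apart. The members and lists were chosen with earlier results of these data known. Intervals cover these libraries only. Protein motifs of the synthetase classes were not analysed here, and 1 promoter match is not reported here.

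Replicate numbers did not pair the libraries, since deviations of same-numbered libraries correlated at -0.018 over 13306 genes.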

Additional observations from a re-analysis of the deposited data

How the results depend on the processing

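Over the 36 members and 7 alternatives that kept all libraries, 225 of 252 values kept direction and side of the threshold. With 1 library left out this held for 117 of 144, and the lone library was then assumed to vary like the other group. With 2 libraries a group, single libraries could decide a call near the threshold. Upper-quartile scaling moved the median log2 fold change to 0.11 for synthetases and 0.0241 for cytosolic ones, gave 12 higher members and turned *Farsb* (0.0167), *Nars* (0.0134) and *Vars* (0.0316) positive. edgeR called 1 lower member at 2-fold. The cause was not tested.

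When replicate numbers were fitted as a block, 1857 genes in all were higher at an adjusted p under 0.05, as were 7 synthetases (6 lower), 2 partners and 1 ATF4 pathway gene, and 1 synthetase, *Lars2*, was lower at 2-fold (-2.58). The numbers were shared without evidence of pairing.

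With chromosome medians removed the synthetase median was 0.0282, partners had 2 higher and 1 lower, no ATF4 pathway gene was higher (0), and signs turned for *Dars* (-0.038), *Lars* (-0.0071), *Mars* (0.15), *Vars* (0.13), *Nars2* (-0.0675) and *Wars2* (-0.0015).

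Leaving out 1 library gave 137 to 185 genes higher and 332 to 404 lower at 2-fold, and 1563 to 1815 higher and 1572 to 1737 lower at an adjusted p under 0.05. Synthetases had 5 to 7 higher and 4 to 7 lower, partners 2 higher, and the ATF4 pathway 0 to 1 lower at 2-fold and 0 to 2 higher and 8 to 9 lower otherwise. Medians ran from 0.0657 to 0.115 for synthetases, -0.0016 to 0.0268 for cytosolic and 0.0829 to 0.162 for mitochondrial ones. Fold changes ran from -3.56 to -1.39 for *Lars2*, -0.0889 to 0.0213 for *Aars*, -0.0683 to 0.0361 for *Farsb*, -0.0615 to 0.0235 for *Nars*, -0.0937 to 0.0868 for *Vars*, -0.0904 to 0.16 for *Nars2*, -0.0365 to 0.22 for *Wars2* and 0.89 to 1.21 for *Spen*.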
